A study of Mus musculus with 6 samples.

Results

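The heat shock proteins and their DnaJ co-chaperones were followed in aortas of apoE-/- mice, which have no functional apolipoprotein E gene. The members were every probe set of the array with a single gene symbol beginning with Hspa, Hspb, Hspd, Hspe, Hsph, Dnaja, Dnajb or Dnajc and a number, together with Hsf2, Bag3 and Stip1. This gave 166 of the 45101 probe sets, for 71 of the 18193 genes named on the array. They were picked by symbol, though earlier results of these data were known. Hsf1, the master regulator of the heat shock response, has no probe set under that symbol alone in the annotation used. The Hsp90 genes carry letters after that name, so they were read as a related list. After the dimmest 40% of probe sets were left out, 134 member probe sets remained, and 63 of the 71 genes could be tested. The 8 genes below the filter were Hspa1l, Hspb9, Dnajb3, Dnajb7, Dnajb13, Dnajc5b, Dnajc5g and Dnajc6.

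The study profiled RNA from whole aortas of 32-week-old mice on Affymetrix arrays. The 2 groups were apoE-/- mice, a strain known to develop high plasma cholesterol and atherosclerotic plaques, and C57BL/6J wild-type mice, with 3 arrays in each group. The sample titles carry no strain, and the background strain of the apoE-/- mice is not given here. The labels name genotype, age and replicate, and leave unsaid which targeted allele or diet was used and whether an array holds 1 aorta or a pool. The p-values therefore cover no more than the spread among these arrays, part or all of which may be technical.

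Heat shock proteins are molecular chaperones, which bind unfolded or misfolded proteins and help them fold, travel between compartments or be degraded. Hsp70 proteins (the Hspa genes) use ATP, DnaJ proteins deliver clients to them and start ATP hydrolysis, and Hsp110 proteins (Hsph1, Hspa4 and Hspa4l) exchange the bound nucleotide. The small heat shock proteins (Hspb genes) hold clients without ATP and are abundant in muscle. When misfolded proteins build up in the cytosol, the transcription factor HSF1 binds heat shock elements, inverted repeats built of the letters NGAAN, and turns on Hspa1a, Hspa1b, Hsph1, Dnajb1, Hspb1 and Bag3. Separate programmes serve the endoplasmic reticulum, where Hspa5 (BiP) is the Hsp70, and the mitochondrion, which has Hspa9, Hspd1 and Hspe1.

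The promoters of 4 genes are shown because they belong to both members that passed the test, to the near-identical partner of one of them, and to a DnaJ gene that passed when 1 wild-type array was left out. Each is a stretch of 250 bases before a RefSeq start of the gene on GRCm38.p6, on the minus strand in all 4 cases and written 5′ to 3′. The positions are chr17:34972157-34972406 for Hspa1a, chr17:34959239-34959488 for Hspa1b, chr5:149636316-149636565 for Hsph1 and chr3:152193846-152194095 for Dnajb4. Capitals mark the core of a heat shock element, searched as GAANNTTC or TTCNNGAA, each of which reads the same on both strands. Hsph1 and Dnajb4 each had 2 windows, and the one shown was picked for holding the most cores.
Hspa1a: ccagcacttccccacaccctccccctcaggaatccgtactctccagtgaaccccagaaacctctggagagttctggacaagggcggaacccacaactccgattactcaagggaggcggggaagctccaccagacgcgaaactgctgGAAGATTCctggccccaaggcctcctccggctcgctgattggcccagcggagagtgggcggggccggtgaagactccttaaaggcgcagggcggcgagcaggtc
Hspa1b: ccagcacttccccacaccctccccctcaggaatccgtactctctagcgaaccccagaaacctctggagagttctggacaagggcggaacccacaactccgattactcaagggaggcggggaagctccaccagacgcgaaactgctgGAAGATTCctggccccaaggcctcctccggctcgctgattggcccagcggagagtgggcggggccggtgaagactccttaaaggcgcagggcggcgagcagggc
Hsph1: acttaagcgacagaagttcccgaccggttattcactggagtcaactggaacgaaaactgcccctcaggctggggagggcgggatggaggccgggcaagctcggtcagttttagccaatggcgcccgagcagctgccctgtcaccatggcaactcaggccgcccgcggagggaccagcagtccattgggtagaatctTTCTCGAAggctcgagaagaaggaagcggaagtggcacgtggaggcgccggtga
Dnajb4: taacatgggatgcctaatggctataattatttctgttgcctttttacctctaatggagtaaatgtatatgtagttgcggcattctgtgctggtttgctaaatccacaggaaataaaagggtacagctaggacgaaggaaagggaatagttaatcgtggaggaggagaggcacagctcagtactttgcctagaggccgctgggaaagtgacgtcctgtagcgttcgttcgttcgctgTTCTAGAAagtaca
The Hspa1a and Hspa1b windows were identical at 247 of 250 bases (98.8%). In the windows shown, the core nearest the start ended 97 bases before it in Hspa1a and in Hspa1b. It ended 47 bases before the start in Hsph1 and 7 in Dnajb4. Of the 71 member genes, 59 had a promoter window in the RefSeq table. Either core stood in at least 1 window of 14 of these 59 genes (23.7%), against 3932 of all 27018 genes with a window (14.6%). Among the 9 listed stress-inducible cytosolic genes it stood in 5 (55.6%), which were Hspa1a, Hspa1b, Hsph1, Hspb1 and Dnaja1. The CCAAT box, searched on both strands as CCAAT, stood in at least 1 window of 23 of the 59 member genes (39%) and of 37.5% of all genes with a window. Among the 9 stress-inducible genes the CCAAT box stood in 7 (77.8%). A match is a run of letters and was not tested as a binding site.

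The labels were checked with Apoe itself. Its probe set gave 239.5, 56.3 and 462.1 intensity units on the apoE-/- arrays, against 5685.6, 5625.2 and 4309.1 units on the wild-type arrays (log2 change -4.65 ± 0.56, SE; limma adjusted p = 0.00368). Where its probes lie relative to the deleted part of the gene was not checked. Array medians lay between 178 and 195.5 units, and arrays of one genotype correlated at r = 0.966 to 0.972. The smooth muscle markers Acta2 (12506.3 to 16384.8 units in apoE-/-, 12882.7 to 15828.8 units in wild type) and Myh11 (10116.4 to 12890.8 units in apoE-/-, 11535.2 to 13643.2 units in wild type) were read on all 6 arrays of this labelled aortic tissue. Of 5 cardiac markers, Myh6, Tnni3 and Nppa lay below the filter, whereas Tnnt2 (671.1 to 1443.2 units in apoE-/-, 713.8 to 1172.1 units in wild type) and Myl7 (114.8 to 178 units in apoE-/-, 178.9 to 209.1 units in wild type) lay above it. One array stood apart: wild type replicate 3 read 10 of 12 skeletal muscle markers far above the highest other array, as for Acta1 (6440 units, next highest 329.3) and Atp2a1 (3612.9 units, next highest 262.1).

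Most heat shock and DnaJ genes did not pass the test, and the 2 that did were both lower in apoE-/- aorta. Of 63 member genes tested, 0 were called higher and 2 lower, Hspa1a and Hsph1, by limma with a threshold of 0.05 on p-values adjusted over the whole table. Over all 13031 genes tested, 3.15% were called higher and 0.483% lower. At an unadjusted p under 0.05 there were 21 member genes, against 2394 of all genes. Log2 changes of the member genes ran from -0.89 (Hspa1a) to 0.47 (Dnajc2), with a median of -0.11 against -0.05 over all genes. They were negative in 45 of 63 genes (71.4%), against 58.9% of all genes. All 3 apoE-/- arrays lay below all 3 wild-type arrays for 17 member genes (27%, against 13.8% of all genes), and above them for 4 (6.35%, against 10.9%).

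The count of 2 depended on single arrays. The number of member genes called lower was 0 without apoE-/- replicate 1, apoE-/- replicate 3, wild type replicate 1 or wild type replicate 2. In those fits 10, 13, 15 and 27 of all 13031 genes were called lower, in the same order, against 63 with every array kept. The member count was 2 (Hspa1a and Hspb2) when apoE-/- replicate 2 was dropped, where 156 of all genes were called lower. The member count was 3 (Hsph1, Hspa1b and Dnajb4) when wild type replicate 3 was dropped, where 22 of all genes were called lower. No member gene was called higher with any array left out. The median of the member genes was -0.19 without apoE-/- replicate 1, against -0.04 over all genes, and -0.19 when wild type replicate 3 was omitted, against -0.05 over all genes. Without wild type replicate 2 it was -0.07, close to the -0.06 over all genes. It was -0.14, -0.14 and -0.15 without apoE-/- replicate 2, apoE-/- replicate 3 and wild type replicate 1, against -0.06, -0.04 and -0.04 over all genes.

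**Figure D1:**
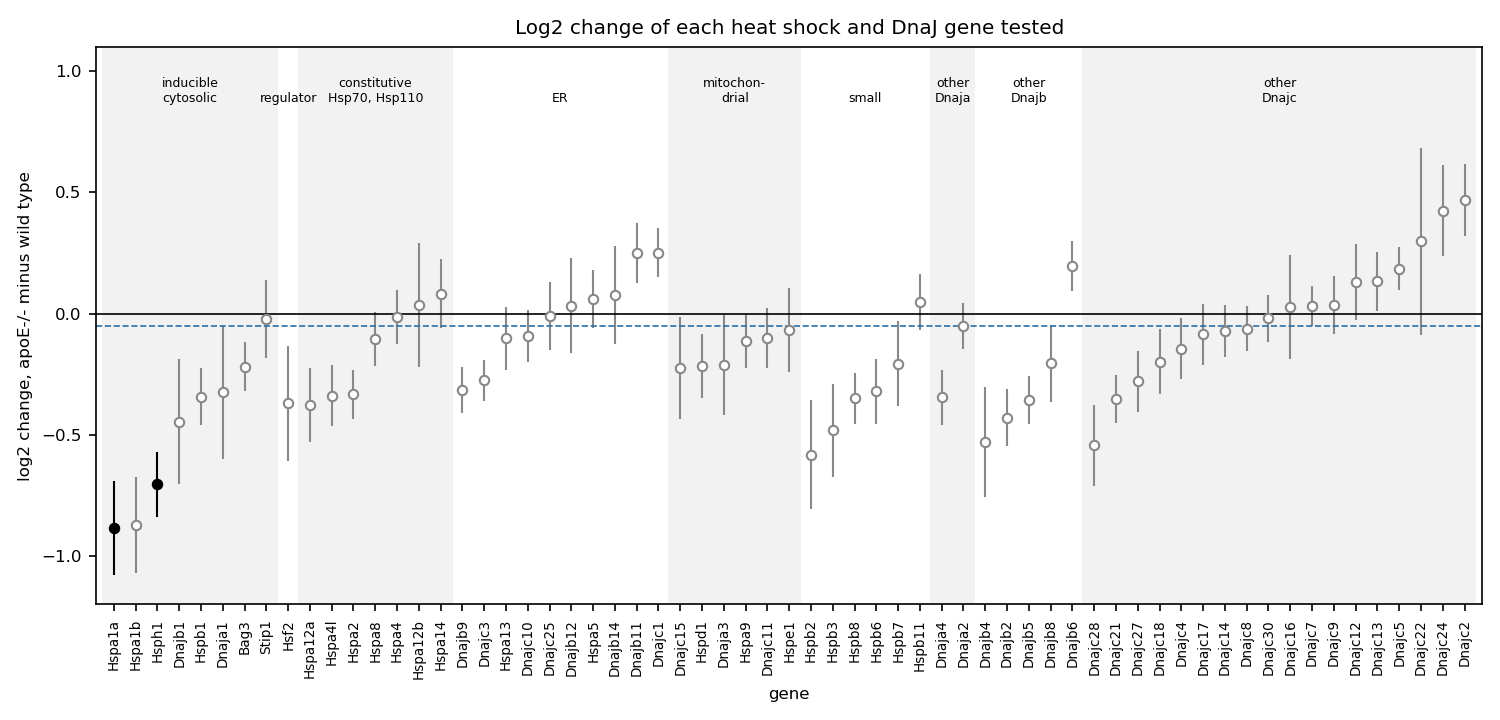
Log2 change, apoE-/- minus wild type, of each of the 63 heat shock and DnaJ genes tested, grouped by role (x axis) with its standard error as a bar, 3 arrays a genotype. Filled black points are the 2 genes that passed the test, Hspa1a and Hsph1, the solid line is 0 and the dashed blue line is the median of all genes tested (-0.05). Points of the stress-inducible, mitochondrial and small heat shock groups lie mostly below the dashed line, and those of the ER and the largest DnaJ group lie on both sides. Hspb1 is drawn with the inducible genes only.

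Read by the brightest probe set of each gene, the stress-inducible cytosolic chaperones held the most negative log2 changes of the members. Of 9 listed genes 8 were tested, all 8 had negative log2 changes with a median of -0.40, 2 were called lower and 0 higher. Hspa1a, an inducible Hsp70 on chromosome 17 read by 1 probe set, gave 1107.8, 1615.3 and 1477.1 units on the apoE-/- arrays, against 3416.8, 2245.8 and 2208.7 units on the wild-type arrays. All 3 apoE-/- arrays were below the lowest wild-type array, and Hspa1a averaged 1400.1 ± 262 units in apoE-/- aorta and 2624 ± 687 units in wild type (SD, n = 3 each). Hspa1a fell by 0.89 ± 0.19 on the log2 scale (SE, limma adjusted p = 0.0444). Hspa1b, its near-identical neighbour on the same chromosome, gave 3243.2, 3328.5 and 3357.5 units in apoE-/- aorta, against 7525.4, 7096.7 and 4190.1 units in wild type. The apoE-/- arrays lay close together below a wide wild-type group, and the difference just missed the threshold (log2 change -0.87 ± 0.20, limma adjusted p = 0.0502). The 3 Hspa1b probe sets had log2 changes of -0.87 to -1.03, and each separated the genotypes without overlap. Their probes can share signal with Hspa1a, so which copy was lower is uncertain.

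Hsph1, the inducible Hsp110 that exchanges nucleotide on Hsp70, was read by 2 kept probe sets. The brighter one gave 2176.6, 1853.1 and 1918.6 units in apoE-/- aorta, against 3574.3, 3576.1 and 2650.7 units in wild type, with no overlap. Hsph1 fell by 0.71 ± 0.13 on the log2 scale (SE, limma adjusted p = 0.0251). The other gave 1074.7, 1502.9 and 1402 units in apoE-/- aorta, against 3020.2, 2525.5 and 2014.2 units in wild type, again without overlap. In a fit over all 27022 kept probe sets, in which 2.44% were called higher and 0.281% lower, both Hsph1 probe sets were called lower, and the dimmer one had a log2 change of -0.91 ± 0.17 (adjusted p = 0.0252). That fit called 4 of the 134 member probe sets lower and 0 higher.

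Both calls depended on single arrays and on settings of the fit. With each array centred on its median, adjusted p-values were 0.0506 for Hspa1a and 0.0534 for Hsph1, and without the intensity trend 0.0936 for Hspa1a and 0.0634 for Hsph1. Hspa1a alone also missed the threshold without the filter on dim probe sets (adjusted p = 0.0747). Without apoE-/- replicate 1, apoE-/- replicate 3, wild type replicate 1, wild type replicate 2 or wild type replicate 3 in turn, Hspa1a had limma adjusted p-values of 0.151, 0.127, 0.0984, 0.0574 and 0.0748, and without apoE-/- replicate 2 it had 0.0384. Hsph1 had 0.0625, 0.0507 and 0.104 without apoE-/- replicates 1, 2 and 3, then 0.0929 and 0.0687 without wild type replicates 1 and 2, and 0.0139 without wild type replicate 3. The log2 changes stayed negative in each of these fits, from -0.997 to -0.681 for Hspa1a and from -0.85 to -0.63 for Hsph1.

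The remaining inducible genes did not pass the test. Dnajb1, the heat-inducible DnaJ partner of Hsp70, gave 1172.1, 854.4 and 1123.8 units in apoE-/- aorta, against 1961, 1616.3 and 909.3 units in wild type (log2 change -0.45 ± 0.26, adjusted p = 0.403). Dnaja1, a farnesylated DnaJ protein, gave 3086.8, 2016.7 and 2913.3 units in apoE-/- aorta, against 3985.9, 4349.9 and 2062.1 units in wild type (log2 change -0.32 ± 0.27, adjusted p = 0.578). For both genes wild type replicates 1 and 2 were above every apoE-/- array and wild type replicate 3 lay among them. Without that array the log2 changes were -0.77 for Dnajb1 (adjusted p = 0.0748) and -0.66 for Dnaja1 (adjusted p = 0.152). Without wild type replicate 1 they were -0.22 for Dnajb1 and -0.19 for Dnaja1. Dnaja1 also stood at -0.13 without wild type replicate 2 and at -0.14 without apoE-/- replicate 2. Bag3, a partner of Hspb8 in chaperone-assisted autophagy, gave 1670.1, 1595.8 and 1504.9 units in apoE-/- aorta, against 1950.8, 1972.9 and 1653.1 units in wild type. Only apoE-/- replicate 1 and wild type replicate 3 overlapped (log2 change -0.22 ± 0.10, adjusted p = 0.295). Stip1, the adaptor that hands clients from Hsp70 to Hsp90, gave 850.1, 940.9 and 825.7 units in apoE-/- aorta, against 776.7, 775.9 and 1153.2 units in wild type. The wild-type arrays lay on both sides of the apoE-/- arrays (log2 change -0.02 ± 0.16, adjusted p = 0.952), and the sign turned when arrays were centred on their medians. The regulator Hsf2, a relative of HSF1, gave 167.5, 113.2 and 105.9 units in apoE-/- aorta, against 164.7, 138.3 and 207.6 units in wild type, also overlapping (log2 change -0.37 ± 0.24, adjusted p = 0.457).

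**Figure D2:**
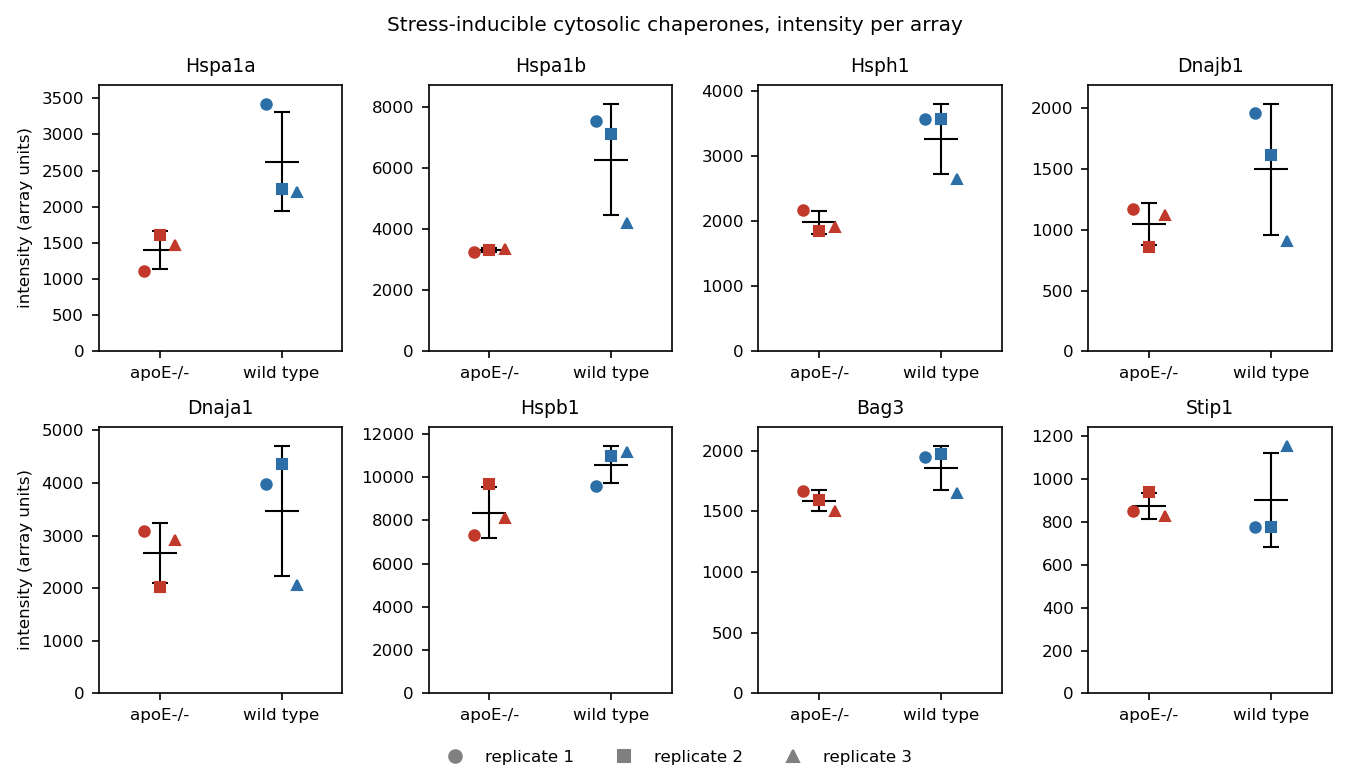
Intensity in array units (y axes from 0) of 8 stress-inducible cytosolic chaperones in apoE-/- (left, red) and wild-type (right, blue) aorta. Points are single arrays with the shape giving the replicate number, and bars are mean ± SD, n = 3. Hspa1a, Hspa1b and Hsph1 show no overlap, and the triangle of wild type replicate 3 is the lowest wild-type point for each gene except Hspb1 and Stip1.

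Wild type replicate 3 was the lowest wild-type array for 6 of the 8 inducible genes tested and for 29 of the 63 member genes (46%), against 32.1% of all 13031 genes. Set against the wild-type mean of each gene, the inducible genes had per-array median deviations of -0.40, -0.68 and -0.36 log2 units in apoE-/- replicates 1, 2 and 3, against 0.21, 0.12 and -0.25 in wild type replicates 1, 2 and 3. Over all member genes these deviations were -0.09, -0.18 and -0.18 in apoE-/- aorta, against -0.00, 0.07 and -0.06 in wild type. Without wild type replicate 3, Hspa1b passed (log2 change -1.14 ± 0.10, limma adjusted p = 0.00351), Hsph1 remained called with a log2 change of -0.85 and Hspa1a did not pass (log2 change -0.99, adjusted p = 0.0748). Stip1 changed sign, to 0.16.

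Other lists also separated the genotypes or set that array apart. The summed intensity of the 9 inducible genes was 20710.3 to 21886.6 units on the apoE-/- arrays, against 26030.5 to 32846.4 on the wild-type arrays, where replicate 3 had the lowest value. The 12 macrophage markers summed to 47312.2 to 74949.4 units in apoE-/- aorta, against 16237.8 to 17577.2 units in wild type, with 11 of 12 called higher. The 12 skeletal muscle markers summed to 1902.3 to 2252.3 units in apoE-/- aorta, against 3362.5 and 3518.8 units in wild type replicates 2 and 1 and 33842.2 units in wild type replicate 3. The 5 fibroblast markers summed to 39656.4 to 50385 units in apoE-/- aorta, against 33801.6 to 34437.5 units in wild type, with Lum called higher. The 7 endothelial markers summed to 10832 to 13395.4 units in apoE-/- aorta, against 7926.4 to 11334.5 units in wild type, with Emcn called higher. Of 8 immediate early genes such as Fos and Egr1, transcription factors switched on quickly by many stimuli, 0 were called and 1 had an unadjusted p under 0.05, and their sums of 15679.4 to 22577.5 units in apoE-/- aorta overlapped those of 10949.2 to 21647 units in wild type. No macrophage or smooth muscle marker was at 0. In RNA from whole tissue, fewer cells of a type and less RNA per cell cannot be told apart. The part of these quantities in the chaperone differences was not tested.

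**Figure D3:**
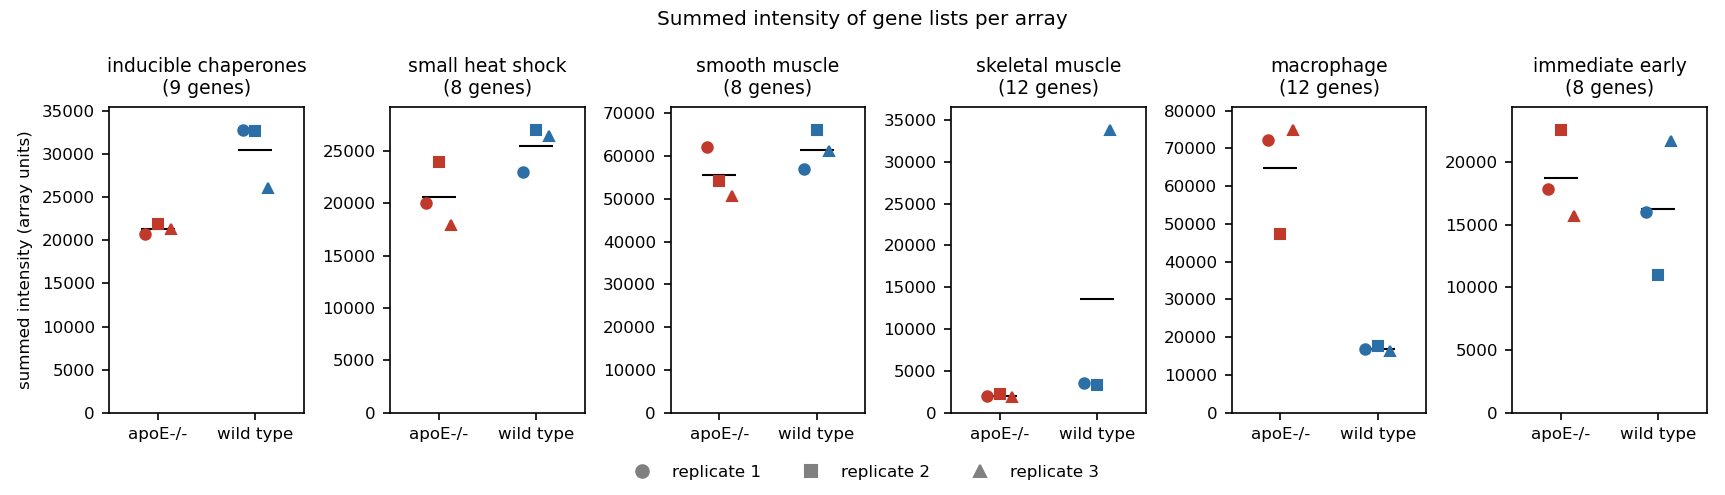
Summed intensity in array units (y axes from 0) of 6 gene lists on each array, apoE-/- left in red and wild type right in blue, with the replicate number as the point shape and the mean as a horizontal bar. Hspb1 is part of both the inducible and the small heat shock sums. The inducible chaperone sums of apoE-/- aorta, at most 21886.6 units, lie below the lowest wild-type sum of 26030.5 units. The skeletal muscle sum stands at 33842.2 units on wild type replicate 3 alone, and the macrophage sums are higher on all 3 apoE-/- arrays.

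Constitutive cytosolic Hsp70 and Hsp110 genes did not pass the test. Of 7 genes, 0 were called by limma, 3 had an unadjusted p under 0.05, 5 had negative log2 changes, and the median was -0.11. Hspa8 (Hsc70), the housekeeping Hsp70 that also uncoats clathrin vesicles, gave 11589.6, 9604.6 and 9810.4 units in apoE-/- aorta, against 11814.7, 11631.3 and 9892 units in wild type. Its groups overlapped, and the log2 change of -0.11 had a 95% interval of -0.36 to 0.15 (adjusted p = 0.658). Hspa12a, a distant Hsp70 relative, gave 171.5, 201.5 and 193.6 units in apoE-/- aorta, against 245.4, 255.2 and 247.7 units in wild type, without overlap (log2 change -0.38 ± 0.15, adjusted p = 0.242). Hspa14, which works on the ribosome, had a log2 change of 0.08 ± 0.14 with overlapping groups (adjusted p = 0.802).

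Hspa4, an Hsp110 protein named here after its values were seen, depended on which probe set was read. The brightest of 3 kept probe sets gave 1420.9, 1124.3 and 1266.3 units in apoE-/- aorta, against 1193.3, 1329.6 and 1317.6 units in wild type, a log2 change of -0.02 ± 0.11. A further probe set gave 483.1, 492.2 and 415 units in apoE-/- aorta, against 792.9, 838.8 and 742 units in wild type. This probe set separated the genotypes by a wide gap and was called in the fit over probe sets (log2 change -0.75 ± 0.12, adjusted p = 0.0128). The remaining one gave 1047.8, 1149.9 and 907.7 units in apoE-/- aorta, against 1460.2, 1418.7 and 1521.1 units in wild type, also without overlap (log2 change -0.50 ± 0.11, adjusted p = 0.0550). Which Hspa4 transcripts each probe set reads was not tested. The related Hsp110 gene Hspa4l, also chosen after its values were seen, had negative log2 changes at all 5 kept probe sets, from -0.34 to -0.14, and 0 of these were called. Hspa2, an Hsp70 best known from spermatogenesis and chosen in the same way, gave 1425.3, 1350.3 and 1207.3 units in apoE-/- aorta, against 1589.9, 1641.9 and 1795 units in wild type. These groups did not overlap, and the change did not pass (log2 change -0.33 ± 0.10, adjusted p = 0.127).

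Chaperones of the endoplasmic reticulum went both ways. Of 10 genes, 0 were called by limma, 3 had an unadjusted p under 0.05, 5 had positive and 5 negative log2 changes, and the median was 0.01. Hspa5 (BiP), the leading target of the unfolded protein response, gave 8881.8, 7234 and 7278.3 units in apoE-/- aorta, against 7077.1, 6872.2 and 8500.2 units in wild type. The groups overlapped, and the log2 change of 0.06 ± 0.12 had a 95% interval of -0.21 to 0.33 (adjusted p = 0.834). Dnajb9 (ERdj4), a BiP partner that restrains the sensor Ire1, gave 4020.8, 3668.7 and 3521.3 units in apoE-/- aorta, against 4487.2, 5050.5 and 4429.1 units in wild type. Every apoE-/- value lay below every wild-type value, yet Dnajb9 did not pass (log2 change -0.32 ± 0.09, adjusted p = 0.121). Dnajc1, a membrane-bound BiP partner, gave 1310.9, 1189.1 and 1177.2 units in apoE-/- aorta, against 939, 1079.4 and 1065 units in wild type, higher without overlap (log2 change 0.25 ± 0.10, adjusted p = 0.236). Its 5 kept probe sets ranged from -0.12 to 0.64, so its direction depended on the probe set. Dnajc3 (p58IPK), named after its values were seen, gave 2579.6, 2804 and 2628.1 units in apoE-/- aorta, against 3391.5, 3054.4 and 3259.9 units in wild type (log2 change -0.27 ± 0.08, adjusted p = 0.136). The 5 kept Dnajc3 probe sets ran from -0.27 to 0.04.

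The wider list of the unfolded protein response and ER folding, such as Xbp1, Ddit3 and the disulfide isomerases, also held no call. Of 19 genes, 1 had an unadjusted p under 0.05, 11 had positive and 8 negative log2 changes, with a median of 0.02. The member with the smallest p was Herpud1, a membrane protein of ER-associated degradation, at 1709, 1693 and 1290.4 units in apoE-/- aorta, against 2013.6, 2292.6 and 2187.1 units in wild type. It was lower on every apoE-/- array and did not pass (log2 change -0.47 ± 0.12, adjusted p = 0.0859).

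At the brightest probe set of each gene, mitochondrial chaperones showed no call, no gene without overlap and 0 genes at an unadjusted p under 0.05 in limma. All 6 genes tested had negative log2 changes, with a median of -0.16. Dimmer kept probe sets of Dnaja3 and Dnajc11, named after their values were seen, were lower without overlap. Their log2 changes were -0.53 and -0.27, with adjusted p of 0.256 and 0.379 in the limma fit over probe sets. The dimmer kept probe sets of Hspa9 and Hspe1 overlapped. Hspd1 (Hsp60), the mitochondrial chaperonin, gave 4244.8, 3555 and 3991.1 units in apoE-/- aorta, against 3970.8, 5525.9 and 4315.5 units in wild type (log2 change -0.22 ± 0.13, adjusted p = 0.433). Hspe1 (Hsp10), its lid, gave 3411.8, 2581.4 and 3271.1 units in apoE-/- aorta, against 2847.2, 4191.8 and 2777.2 units in wild type (log2 change -0.07 ± 0.17, adjusted p = 0.873). These genes lie head to head and share a promoter region, and wild type replicate 2 was the highest array for both. Hspa9 (mortalin), the Hsp70 of the mitochondrial import motor, gave 2742.4, 2542.5 and 2445.8 units in apoE-/- aorta, against 2463.8, 3173.6 and 2769.3 units in wild type, with the same array highest (log2 change -0.11 ± 0.11, adjusted p = 0.625). Dnajc15, an inner membrane protein that restrains respiratory complex I, gave 1623.3, 1338.8 and 1562.3 units in apoE-/- aorta, against 1369.5, 2567.9 and 1548.8 units in wild type (log2 change -0.23 ± 0.21, adjusted p = 0.619). Without wild type replicate 2, the log2 changes were -0.08 for Hspd1, 0.12 for Hspe1, -0.02 for Hspa9 and 0.04 for Dnajc15, so the shared negative sign rested in part on that array. Hspe1 also turned, to 0.06, without apoE-/- replicate 2. The adipocyte markers, which include the brown fat gene Ucp1 of mitochondria-rich cells, summed to 26323.3 to 37221.4 units in apoE-/- aorta, against 28168 to 47480.6 units in wild type, and were also highest on wild type replicate 2. Their part in the mitochondrial values was not tested. Of 6 genes of mitochondrial quality control, 0 were called and 0 had an unadjusted p under 0.05, and Lonp1, the matrix protease, had the smallest p (log2 change -0.16, adjusted p = 0.496).

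Small heat shock genes had mostly negative log2 changes, and none passed the test. Hspb1 was counted here and also among the inducible genes. Of 8 listed genes 7 were tested, 6 had negative log2 changes, and the median was -0.34. In limma 0 were called and 5 had an unadjusted p under 0.05, against 2394 of all 13031 genes. For 3 of the 7 all apoE-/- arrays lay below all wild-type arrays, against 13.8% of all genes. Hspb1 (Hsp25 in the mouse), which stabilises actin filaments, gave 7318.2, 9652.3 and 8095.9 units in apoE-/- aorta, against 9573.2, 10966.2 and 11136.3 units in wild type. Its groups overlapped by 1 array (log2 change -0.34 ± 0.12, adjusted p = 0.176). Hspb6 (Hsp20), whose phosphorylated form relaxes smooth muscle, gave 3533.6, 3680.2 and 2611.7 units in apoE-/- aorta, against 3762.6, 4118.7 and 4284.7 units in wild type, without overlap (log2 change -0.32 ± 0.13, adjusted p = 0.254). Hspb8, the partner of Bag3, gave 1762.7, 2039.7 and 1661.1 units in apoE-/- aorta, against 2167.9, 2485.4 and 2309.6 units in wild type. It too was lower on every apoE-/- array (log2 change -0.35 ± 0.11, adjusted p = 0.126). The 3 kept Hspb8 probe sets ran from -0.49 to -0.24, and the dimmest, at -0.24, had overlapping groups.

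Hspb2 had the largest negative log2 change of this group. It gave 1405.5, 1987.6 and 944.3 units in apoE-/- aorta, against 1958.8, 2085.4 and 2198.8 units in wild type (log2 change -0.58 ± 0.23, adjusted p = 0.218). Replicate 2 of apoE-/- lay among the wild-type arrays, and without it Hspb2 passed (log2 change -0.84, limma adjusted p = 0.0288). Without apoE-/- replicate 3, the lowest array, the log2 change was -0.31 (adjusted p = 0.458). Hspb7, a muscle-enriched member, gave 5049.5, 5534.6 and 3618 units in apoE-/- aorta, against 4483.1, 6301.8 and 5510.1 units in wild type, and its groups overlapped (log2 change -0.21 ± 0.18, adjusted p = 0.580). Hspb11, which is part of the intraflagellar transport machinery, had a log2 change of 0.05 ± 0.11 (adjusted p = 0.864). The related alpha crystallin Cryab, also a small heat shock protein, gave 2778.3, 3397.8 and 2726.4 units in apoE-/- aorta, against 3468.8, 3417.7 and 3577 units in wild type, a narrow gap that did not pass (log2 change -0.24 ± 0.10, adjusted p = 0.263).

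Small heat shock genes are known to be expressed in muscle, so muscle markers were read beside them. The 8 small heat shock genes summed to 17901.9 to 23975.9 units in apoE-/- aorta, against 23026.4 to 27032.6 units in wild type. The 8 smooth muscle markers summed to 50639.3 to 62070.6 units in apoE-/- aorta, against 57017.9 to 66212 units in wild type. All 8 had negative log2 changes with a median of -0.15, 0 were called, 3 had an unadjusted p under 0.05, and both sums were lowest on apoE-/- replicate 3. All 8 skeletal muscle markers tested had negative log2 changes, with a median of -1.37, and 2 were called lower, Casq1 and Ckm. These 2 were not among the markers that stood out on wild type replicate 3. The other markers tested did stand out there, so the size of that median depended on that array. For Tnni2, Atp2a1 and Actn3, wild type replicates 1 and 2 lay among the apoE-/- arrays. For Acta1, Mylpf and Pvalb they lay above every apoE-/- array. The small heat shock sum of wild type replicate 3, at 26406.6 units, lay between those of the other wild-type arrays. The part of muscle content in the small heat shock values was not tested.

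The other DnaJ genes held no call in limma, with 1 Dnaja, 3 Dnajb and 3 Dnajc genes at an unadjusted p under 0.05. The 2 remaining Dnaja genes both had negative log2 changes. Dnaja4, a DnaJ protein linked to cholesterol synthesis, gave 471.4, 528.8 and 455.3 units in apoE-/- aorta, against 620.8, 627.8 and 610.5 units in wild type, a clear gap that did not pass (log2 change -0.35 ± 0.11, adjusted p = 0.154). Dnaja2, a constitutive partner of Hspa8, had a log2 change of -0.05 ± 0.10 (adjusted p = 0.822). Of 5 remaining Dnajb genes tested, 4 had negative log2 changes and the median was -0.36. Dnajb4, a close relative of Dnajb1, gave 3030.6, 2445.8 and 3328.7 units in apoE-/- aorta, against 5126.9, 5148.7 and 2821.3 units in wild type. Wild type replicates 1 and 2 were well above the apoE-/- arrays and replicate 3 was among them, the pattern seen for Dnajb1 and Dnaja1 (log2 change -0.53 ± 0.23, adjusted p = 0.263). Without wild type replicate 3 Dnajb4 passed, with a log2 change of -0.82 (limma adjusted p = 0.0379). The dimmer Dnajb4 probe sets had log2 changes of only -0.15 and -0.17.

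Dnajb6, which suppresses aggregation of polyglutamine proteins, had a log2 change of 0.20 ± 0.10 at its brightest probe set (adjusted p = 0.354), and its 4 kept probe sets ran from -0.26 to 0.20. Among genes chosen after their values were seen, Dnajb2, a neuron-enriched DnaJ protein that sorts clients to the proteasome, gave 1266.9, 1226.9 and 1054.8 units in apoE-/- aorta, against 1688.4, 1709.9 and 1402.3 units in wild type. This gap had the smallest adjusted p of the group (log2 change -0.43 ± 0.12, adjusted p = 0.0965). Dnajb5, chosen likewise, had a log2 change of -0.36 ± 0.10 without overlap (adjusted p = 0.101) and negative values at all 3 kept probe sets.

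The 18 remaining Dnajc genes tested were split evenly, with 9 positive and 9 negative log2 changes and a median of 0.0035. In each direction 3 were without overlap (16.7%, against 10.9% of all genes higher and 13.8% lower). Dnajc2, a ribosome-associated DnaJ protein that also acts on chromatin, gave 498.7, 538.2 and 520.6 units in apoE-/- aorta, against 440.4, 311.4 and 371.6 units in wild type. This was the largest positive log2 change among the 63 genes, 0.47 ± 0.15, and it did not pass (adjusted p = 0.145). Dnajc28 gave 272.4, 214 and 253.3 units in apoE-/- aorta, against 335.8, 436.2 and 332.1 units in wild type. By brightest probe sets this was the most negative of the group (log2 change -0.54 ± 0.17, adjusted p = 0.136). The other kept Dnajc28 probe set had a log2 change of -0.18 with overlapping groups. Dnajc8, a splicing-associated protein and the brightest of the group, had a log2 change of -0.06 ± 0.09 (adjusted p = 0.763). Dnajc24, which serves diphthamide synthesis and was named after its values were seen, gave 240, 227.1 and 238.1 units in apoE-/- aorta, against 134.6, 185 and 200.1 units in wild type, higher without overlap (log2 change 0.42 ± 0.19, adjusted p = 0.272). Dnajc21, a ribosome biogenesis factor named in the same way, had a log2 change of -0.35 ± 0.10 without overlap (adjusted p = 0.108). Its other kept probe set had a log2 change of 0.015 with overlapping groups.

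Probe sets of one gene did not always go the same way. Of the 37 member genes with several kept probe sets, 26 had all of them on one side of 0, which was lower for 21 and higher for 5, and 11 were mixed. The widest spreads were those of Dnajc17 (1.01 log2 units), Dnajc1 (0.76), Hspa4 (0.74) and Dnajc5 (0.62), of which Dnajc17, Hspa4 and Dnajc5 are named after their values were seen. For Dnajc17 the dim probe set behind that spread gave 69.6, 118.3 and 70.6 units in apoE-/- aorta, against 160.3, 206 and 233.4 units in wild type (log2 change -1.10 ± 0.25 in the fit over probe sets, adjusted p = 0.0557), while the brighter one had a log2 change of -0.09.

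**Figure D4:**
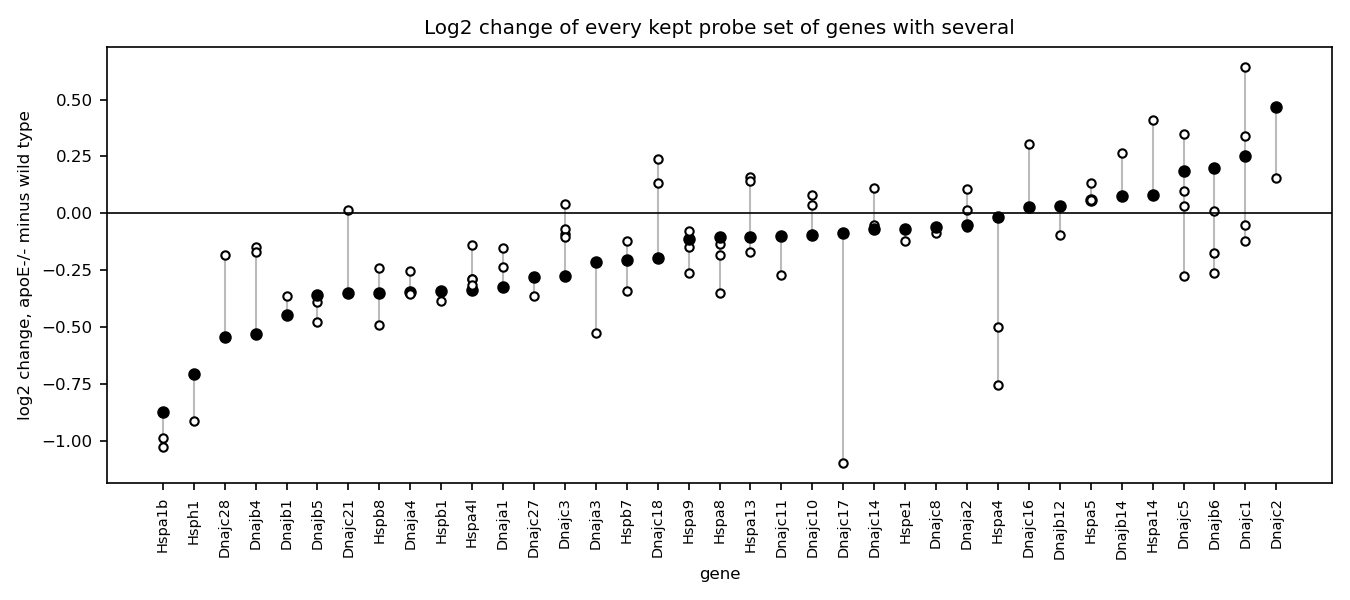
Log2 change, apoE-/- minus wild type, of every kept probe set of the 37 heat shock and DnaJ genes that have several (x axis), with the probe set that represents the gene filled and the others open. Hspa1b and Hsph1 have no probe set above -0.71, Hspa4 and Dnajc17 combine a filled point near 0 with an open one at -0.75 and -1.10, and Dnajc1 and Dnajc5 have points on both sides of 0.

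Partners of these chaperones outside the member list were also read, and 0 of the genes in the Hsp90, cofactor and chaperonin lists were called. At an unadjusted p under 0.05 there were 0, 4 and 1 genes in these 3 lists. The 3 Hsp90 genes tested had a median log2 change of -0.09. Hsp90b1 (Grp94), the Hsp90 of the ER, had the smallest p, with 7587.9, 8272.2 and 7886.1 units in apoE-/- aorta, against 7547.9, 6524.4 and 7844.1 units in wild type (log2 change 0.12 ± 0.10, adjusted p = 0.556). Of 15 cofactors of Hsp90 and Hsp70, 13 had negative log2 changes (86.7%, against 58.9% of all genes), and the median was -0.19. For 5 of them all apoE-/- arrays lay below all wild-type arrays (33.3%, against 13.8% of all genes). Bag2, an Hsp70 nucleotide exchange factor, gave 522, 553.4 and 449.7 units in apoE-/- aorta, against 714.9, 747.7 and 669.1 units in wild type. It was lower on all apoE-/- arrays and had the smallest p of the cofactors (log2 change -0.47 ± 0.12, adjusted p = 0.0775). The summed cofactor intensities did not overlap, at 21874.5 to 22639.9 units in apoE-/- aorta and 24168.9 to 25500 units in wild type. Of 8 subunits of the cytosolic chaperonin, which folds actin and tubulin, 6 had negative log2 changes with a median of -0.06, and Tcp1 had the smallest p (log2 change -0.22, adjusted p = 0.23). Among the immediate early genes, Junb had the smallest p and was higher on every apoE-/- array, at 718.9, 967 and 629.2 units, against 548, 492.4 and 627.7 units in wild type (log2 change 0.45 ± 0.17, adjusted p = 0.214).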

How the data were processed

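Whole-aorta RNA of apoE-/- and wild-type mice, 3 Affymetrix arrays each, was read from the table deposited by the authors, which holds 1 intensity per probe set and array on a linear scale. The software behind these intensities is not given in the sources used here; each array had a mean of 500.002 units after trimming 2% of probe sets at each end, so they had been scaled before deposit. The number of arrays limits the precision, and the table has no detection calls. Symbols came from the platform annotation, which can be old: 34958 probe sets had 1 symbol, 932 several and 9160 no entry, and the GRCm38.p6 gene table held the gene identifiers of 34754 probe sets, each with 1 symbol. No member gene lay within 10 Mb of Apoe.

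Intensities were taken as log2(intensity + 16), which understates changes of dim genes. The 64 control probe sets and the dimmest 40% were left out, leaving 27022 probe sets, and the brightest kept probe set stood for each of 13031 genes. Genotype was the only term of a two-sided limma fit (lmFit, eBayes with an intensity trend, version 3.58.1, R 4.3.3), with Benjamini-Hochberg adjustment over all genes. Every adjusted p is from this fit unless another is stated. The others are the same fit over all kept probe sets, fits with 1 array left out, and fits with a changed setting. An exact permutation test of 1 gene, 3 arrays against 3, has 0.1 as its smallest possible two-sided p and was not run.

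The members and gene lists were chosen with earlier results of these data known. Named were Apoe, called members, the brightest and the most positive and negative gene of each role list, 19 well-known chaperone genes, and the called or smallest-p gene of each related list. Promoter windows came from RefSeq. Alternatives changed the log offset (to 1 or 64), the scaling (quantile or median), the filter (none or 60%), the intensity trend, the array weights and the choice of probe set (their median per gene, or every one), added a replicate block, or left out single arrays.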

Additional observations from a re-analysis of the deposited data

How the results depend on the processing

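No heat shock or DnaJ gene was called higher under any alternative run. The number called lower, 2 as reported, was 0 with median centring, 0 without the intensity trend, 1 without the filter (Hsph1), 4 when every probe set was tested and 0 to 3 with single arrays left out. With the replicate number as a replicate block it was 1 (Hsph1, adjusted p = 0.0406, with Hspa1a at 0.125), and over all genes 283 were called higher and 18 lower. Same-numbered arrays did not deviate together (r of -0.104, -0.181 and -0.0519), so the numbers were not taken as pairs. Over all alternatives the adjusted p ran from 0.0311 to 0.151 for Hspa1a, from 0.0139 to 0.104 for Hsph1 and from 0.00351 to 0.161 for Hspa1b, and the log2 change of each stayed negative. Hspa1b passed with quantile normalization and with the 60% filter. The members' median ran from -0.19 to -0.0702 with single arrays left out. Over all genes, 660 probe sets were called higher when every probe set was tested and 145 to 545 genes with single arrays left out; 41 genes were called lower with median centring, 31 without the intensity trend, 121 with array weights and 10 to 156 with single arrays left out. Signs turned for Dnajb6 (-0.0832) and Dnajc1 (-0.12) when probe sets were reduced to their median, for Hspe1 (0.0275) with array weights and for Stip1 (0.00068) with median centring. With single arrays left out, signs also turned within the ranges of Dnaja2 (-0.11 to 0.0153), Dnajc15 (-0.40 to 0.0450), Dnajc8 (-0.13 to 0.0102), Hspa5 (-0.0379 to 0.15), Hspb11 (-0.0275 to 0.10), Hspe1 (-0.17 to 0.12) and Stip1 (-0.12 to 0.16). The cause was not tested for any of these. Dim probe sets are not shown to be above background, since the table has no detection calls.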
